A study of Anolis carolinensis with 15 samples.

Results

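Cadherins, protocadherins and claudins are the membrane proteins of cell contacts, and 36 of the 26523 genes counted in sorted cells of the regenerating tail of the lizard *Anolis carolinensis* are described here. They were chosen by symbol (cdh, pcdh or cldn followed by a number, leaving out *cdh5*) and by a count of at least 10 in at least 3 of the 15 libraries. Of 43 matching symbols, 7 did not reach that count (*cdh26*, *cldn10*, *cldn14*, *cldn16*, *cldn18*, *cldn23* and *cldn34*). Neither *cdh1* (E-cadherin) nor *cdh3* was among the 43 symbols, so the epithelial members below do not include them. The 36 comprised 15 cadherins, 11 protocadherins and 10 claudins.

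Classical cadherins bind the same cadherin on a neighbouring cell in the presence of calcium and are tied to actin by catenins, forming adherens junctions. Claudins form the strands of tight junctions, which seal epithelial sheets such as the epidermis. Protocadherins are related to cadherins but lack the catenin-binding tail, and the delta protocadherins among them are best known from the nervous system and from the embryonic mesoderm. N-cadherin (*cdh2*) and cadherin-11 (*cdh11*) are typical of mesenchymal cells, whereas claudin-1 (*cldn1*) and claudin-7 (*cldn7*) are typical of epithelia.

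The libraries came from fixed cells of whole tail digests, sorted as *col3a1*+ cells with fluorescent probes to the transcript. For D21, and in part of the study's text for the time course, the gate is given as *col3a1*+ and *krt5*-, which would leave out *krt5*+ epidermal cells. Another sentence of the study names *col3a1*+ and *krt5*+ populations as those profiled at D7, D14 and D28. A figure legend also lists *krt5*+ and double-positive cells among those collected, so the gate of the time course is not settled. The lizards were not genetically modified, were in their first year of life and were of both sexes. There were 3 libraries (A, B and C) at each of D7, D14 and D28 after amputation, with no treatment entered. At D21 there were 3 from lizards given zoledronic acid (ZA), an inhibitor of osteoclasts injected before amputation and repeatedly until collection, and 3 from lizards given PBS, its vehicle. Groups follow the titles of the libraries, although the treatment entry reads N/A for PBS A and PBS for ZA A. The study describes sample tails collected per condition at D21 and repeated experiments per timepoint, without tying animals to libraries, so that p-values measure the spread between these libraries. By the study's account a D14 library was sequenced before the rest of the time course. The labels do not say which. Each D14 library was left out in turn below, but the part of the early sequencing in the D14 comparisons was not tested.

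The total count ranged from 4237978 (ZA A) to 12699682 (D14 A), and the 36 genes together held 0.146% to 0.361% of a library. Levels below are counts scaled to a common library size by TMM over the 15 libraries (CPM, counts normalised to the same sequencing depth). They are not divided by transcript length and are compared only between libraries, within a gene, a sum of genes or a ratio. D28 A stood apart from D28 B and D28 C. The 12 fibroblast markers summed to 104139 CPM in D28 A, against 29915 and 30337 in the other D28 libraries. Collagen transcripts made most of that sum (*col1a1* 52951 and *col1a2* 20016 in D28 A). Other markers differed in direction. *fn1* had 383 CPM in D28 A, against 632 and 865, and *pdgfrb* had 379, against 93.5 and 219. *col3a1*, the sorting gene, was counted in all libraries, at 1731 to 22144 CPM. All 10 endothelial, 9 Schwann cell and 9 muscle markers that were counted were above 0 in at least 1 library, a low bar at this depth. Whether these transcripts came from other cells in the sorted fractions was not tested. In such bulk samples fewer cells of a type and less RNA per cell cannot be told apart.

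Of the 36 genes, 6 passed the test in at least 1 comparison of the time course. Claudin-1 was higher at D14 and D28 than at D7, and N-cadherin fell at D28. The delta protocadherins *pcdh18* and *pcdh19* were lower at D14 and D28 than at D7. Claudin-7 (higher) and *pcdh9* (lower) passed only for D28 against D7. A gene was called at an adjusted p under 0.05 (edgeR quasi-likelihood test, Benjamini-Hochberg over all genes tested). At D14 against D7, 1 was called higher and 2 lower, where 2.22% of the 21326 genes tested were called higher and 2.40% lower. At D28 against D14 none was called higher and 1 lower, where the shares of all genes were 0.675% and 0.352%. At D28 against D7, 2 were called higher and 4 lower, where the shares were 4.05% and 4.21%. The median log2 fold change of the 36 was -0.43, 0.11 and 0.06 in these comparisons, against 0.05, 0.04 and 0.13 over all genes. Calls depended on single libraries. Without D28 A, 8 of the 36 passed at D14 against D7, where 17.1% of all genes passed, and 10 at D28 against D7, where 20.2% did. Without D7 B or D7 C none passed at D14 against D7 (0.321% and 0.547% of all genes) and 1 at D28 against D7 (1.52% and 1.37%). Without D14 A none passed at D14 against D7 (0.523% of all genes).

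**Figure D1:**
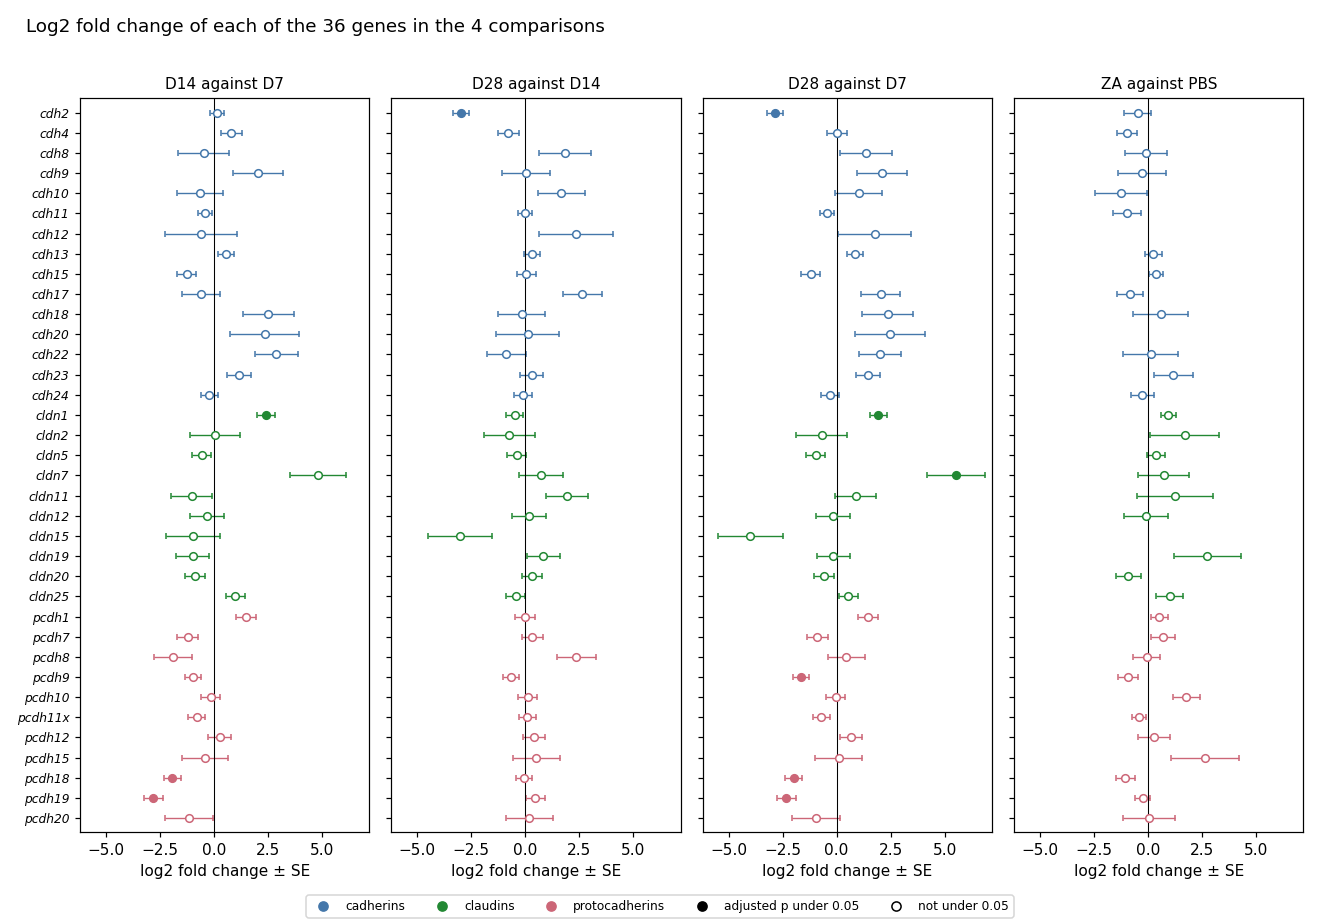
Log2 fold change with its SE (horizontal axes) of each of the 36 genes in the 4 comparisons, with filled points where the adjusted p was under 0.05. Only *cdh2* is filled in D28 against D14 and none in ZA against PBS, where 3 genes that did not reach 10 counts in 3 of these 6 libraries have no point.

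*cdh2* fell at D28. It had 55.5, 41.9 and 42.2 CPM in D7 A, B and C, then 43.5, 50.5 and 59.4 at D14, and 4.33, 6.67 and 8.27 at D28. All 3 libraries of D28 lay below all 6 earlier ones, and D7 and D14 overlapped. The group means were 46.5 ± 7.76, 51.2 ± 7.95 and 6.43 ± 1.98 (SD, n = 3 each). N-cadherin was 7.90-fold lower at D28 than at D14 (log2 fold change -2.98 ± 0.36 SE, adjusted p = 0.0033) and 7.23-fold lower at D28 than at D7 (-2.85 ± 0.36, adjusted p = 0.0028). It passed the threshold of 0.05 in both comparisons in each of 17 alternative analyses, the highest adjusted p being 0.029 and 0.019. D14 against D7 gave 0.13 ± 0.33 (adjusted p = 0.87). The gene lies on chromosome 4 at 54235464 to 54400554 of the rAnoCar3.1.pri build, and no other annotated gene overlaps it.

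The other cadherins grouped here as mesenchymal, *cdh11* and *cdh4*, did not pass in any comparison. *cdh11* had 137, 167 and 108 CPM at D7, then 81.6, 108 and 120 at D14, and 66.7, 129 and 109 at D28, and the groups overlapped. Its log2 fold change was -0.02 ± 0.32 for D28 against D14 (adjusted p = 0.99) and -0.45 ± 0.32 for D28 against D7 (adjusted p = 0.40). *cdh4*, R-cadherin, averaged 8.13 ± 2.89, 14.3 ± 1.31 and 8.29 ± 2.94 in D7, D14 and D28 libraries. Its log2 fold change was 0.81 ± 0.48 for D14 against D7 (adjusted p = 0.36) and -0.78 ± 0.48 for D28 against D14 (adjusted p = 0.62). Of the 3 mesenchymal cadherins, 1 fell and none rose between D14 and D28, where 0.352% of all genes tested fell and 0.675% rose. The median log2 fold change of the 3 was -0.78, which is the value of *cdh4*, against 0.04 over all 21326 genes tested.

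**Figure D2:**
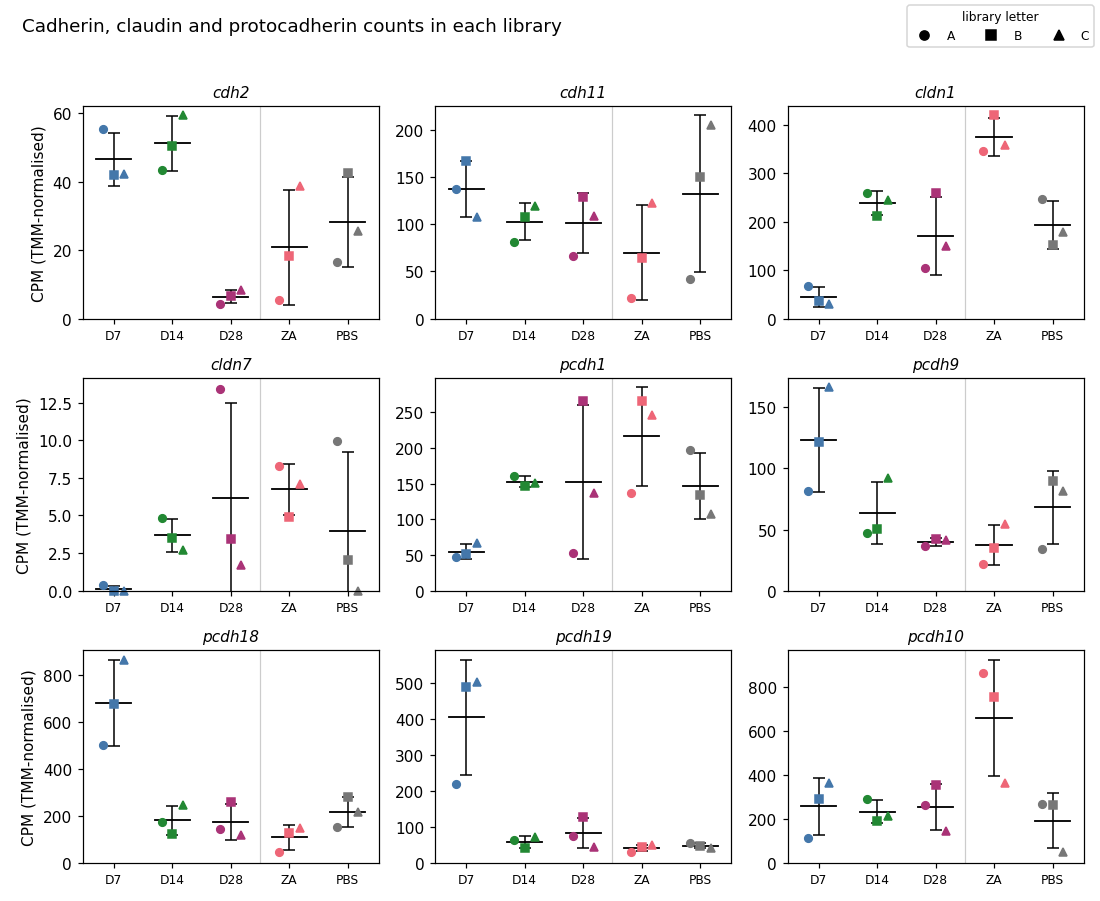
CPM (vertical axes, from 0) of 9 of the genes in each library, by group, with points for libraries A, B and C, a line at the mean and bars of 1 SD, drawn no lower than 0 (n = 3). *cdh2* is low in all 3 libraries of D28 (4.33 to 8.27), *cldn1* is low at D7 (30.4 to 67.4), *pcdh18* and *pcdh19* are high at D7, and *pcdh10* has its highest mean in ZA libraries.

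*cldn1* took another course and rose between D7 and D14. Claudin-1 is needed for the water barrier of mammalian epidermis. It had 67.4, 35.2 and 30.4 CPM at D7, then 259, 212 and 245 at D14, and 104, 260 and 149 at D28. All libraries of D14 and D28 lay above all of D7, while D14 and D28 overlapped. It was 5.36-fold higher at D14 than at D7 (log2 fold change 2.42 ± 0.41 SE, adjusted p = 0.0097) and 3.83-fold higher at D28 than at D7 (1.94 ± 0.40, adjusted p = 0.017). D28 against D14 gave -0.49 ± 0.39 (adjusted p = 0.74). The D14 call was lost without D7 B (adjusted p = 0.073), D7 C (0.075) or D14 A (0.052), and the D28 call without D7 B (0.085) or D7 C (0.089). The gene lies on chromosome 3 at 285874688 to 285920296.

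*cldn7*, also a claudin of epithelial sheets, was near absent from the D7 libraries. Its raw counts were 3, 0 and 0 at D7, then 65, 48 and 33 at D14, and 99, 31 and 17 at D28. Every library of D14 and D28 was above every library of D7. Summed and scaled by library size, the counts at D28 were 46.0 times those at D7, with an exact 95% interval of 15.5 to 226 that covers counting error only. For D14 the ratio to D7 was 30.4 (10.2 to 149). The test passed for D28 against D7 (adjusted p = 0.027) and not for D14 against D7 (adjusted p = 0.057). D28 A held 99 of the 147 counts at D28. The fitted log2 fold change for D28 against D7 was 5.52, which depends on the prior count, and it was 4.29 without D28 A and 8.96 without D7 A. The call was kept without D7 A or any 1 library of D28 and lost without D7 B (adjusted p = 0.094), D7 C (0.10), D14 A (0.055), D14 B (0.052) or D14 C (0.052).

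The remaining epithelial members did not pass in any comparison. *cldn20* averaged 16.3 ± 2.46, 8.83 ± 2.34 and 11.1 ± 5.67 CPM in D7, D14 and D28 libraries, with a log2 fold change of -0.89 ± 0.46 for D14 against D7 (adjusted p = 0.29). *cldn15*, known as a channel-forming claudin of the mammalian gut, had raw counts of 18, 5 and 10 at D7, then 12, 9 and 6 at D14, and 0, 0 and 2 at D28. Its summed counts at D28 were 17.6-fold lower than at D7 (4.49 to 151, counting error only), but the test did not pass (adjusted p = 0.12). *cdh17*, the liver and intestine cadherin, had 37.2 CPM in D28 A and 1.56 and 10.8 in the other D28 libraries, so that 1 library set its mean. Its log2 fold change was 2.65 ± 0.91 for D28 against D14 (adjusted p = 0.27). Thus among the 5 epithelial members, 1 rose and none fell between D7 and D14, where 2.22% of all genes tested rose and 2.40% fell. Between D7 and D28, 2 of the 5 rose and none fell, where 4.05% of all genes rose and 4.21% fell.

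Within a library, the ratio of *cldn1* to *cdh2* counts compares an epithelial with a mesenchymal member, and transcript length cancels when libraries are compared. This pair was chosen after its values were seen, and the ratio is given as a description with no test. It was 1.21, 0.841 and 0.722 at D7, then 5.96, 4.19 and 4.12 at D14, and 24.1, 39.0 and 18.01 at D28. Over the sums of all 5 epithelial and all 3 mesenchymal members the ratio of CPM was 0.451, 0.271 and 0.304 at D7, then 1.94, 1.35 and 1.34 at D14, and 2.27, 1.86 and 1.34 at D28, so that D14 and D28 overlapped. The epithelial sum was mostly *cldn1* (259 of 273 CPM in D14 A) and the mesenchymal sum mostly *cdh11* (81.6 of 141). For D14 against D7, *cldn20*, *cldn15* and *cdh17* had negative log2 fold changes (-0.89, -0.97 and -0.61), and *cldn7* a positive one. For *cldn1* over *cdh2*, the step between D7 and D14 came with the higher *cldn1* and that between D14 and D28 with the lower *cdh2*. At D21 the ratio of this pair was 64.0, 22.9 and 9.28 in ZA libraries, against 14.99, 3.59 and 6.99 in PBS libraries, and these overlapped.

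Epidermal transcripts moved with *cldn1* and *cldn7*. The 13 epidermis markers counted, which did not include these claudins, summed to 1450, 883 and 918 CPM at D7, then 6670, 6629 and 4729 at D14, and 1631, 7794 and 5624 at D28. Between D7 and D14, 10 of the 13 rose and none fell (2.22% of all genes tested rose), and their median log2 fold change was 2.27, against 0.05 over all genes. Among them were *evpl* (envoplakin, of the cornified envelope, log2 fold change 2.93), *pkp1* (plakophilin-1, of desmosomes, 2.93) and *dsp* (desmoplakin, 2.75). The 12 fibroblast markers summed to 26995 to 30403 at D7, then 9954 to 12055 at D14, and 29915 to 104139 at D28. These sums were mostly collagen transcripts. Between D7 and D14, 4 of the 12 fell, where 2.40% of all genes tested fell. The part of the marker shifts in the claudin changes was not tested. D28 A, whose epidermis sum was the lowest of D28 and whose fibroblast sum was the highest, had the lowest *cldn1* and the highest *cldn7* of D28.

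**Figure D3:**
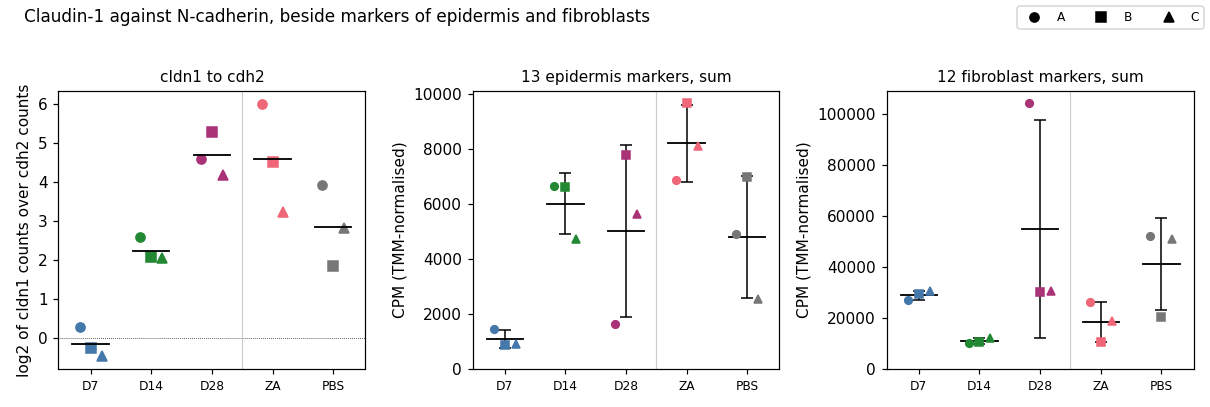
Left, log2 of the ratio of *cldn1* to *cdh2* counts in each library; middle and right, summed CPM of 13 epidermis and 12 fibroblast markers (axes from 0). Points are libraries A, B and C, lines are means and bars are 1 SD (n = 3). The ratio is 0.722 to 1.21 at D7, 4.12 to 5.96 at D14 and 18.01 to 39.0 at D28, and the epidermis sum is lowest at D7.

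Junction partners were followed from lists grouped by role, which were chosen with earlier results of these data known. Of 14 tight junction partners tested, 3 rose and none fell between D7 and D14, and 12 had a positive log2 fold change. Of all genes tested, 2.22% rose and 52.3% were positive. The median was 1.19, against 0.05 over all genes. The 3 that rose were *ocln* (occludin, 2.53, adjusted p = 0.0073), *cgn* (cingulin, 1.98, adjusted p = 0.013) and *patj* (1.87, adjusted p = 0.043), scaffold and strand proteins of the same junction as the claudins. Of 13 adherens junction partners, *nectin4* (3.22, adjusted p = 0.018) and *nectin1* (1.60, adjusted p = 0.039) rose, and no catenin passed. Between D14 and D28, none of the 13 adherens junction partners and none of the 14 tight junction partners passed. In that comparison only 0.675% of all genes tested rose and 0.352% fell, so the lack of calls does not show that the partners stayed unchanged.

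Most regulators of the epithelial state moved in the direction of *cldn1* and of the epidermis markers between D7 and D14. Of the 11 tested, 10 had a positive log2 fold change, where 52.3% of all genes did. The part of epidermal cells in the sorted fractions in the changes of these regulators and of the junction partners was not tested. Of 11 epithelial regulators, 7 rose and none fell between D7 and D14, where 2.22% of all genes rose, and their median log2 fold change was 2.53, against 0.05. They included *grhl2* (3.39), *esrp1* (3.39) and *esrp2* (3.20), a transcription factor and splicing factors of epithelia. Of 8 transcription factors known to drive epithelial to mesenchymal transition, *twist1* fell between D7 and D14 (-2.32, adjusted p = 0.0073), where 2.40% of all genes fell. At D28 against D7, *twist1* (-3.07, adjusted p = 0.0017) and *snai2* (-3.07, adjusted p = 0.0080) fell and *zeb2* rose (1.12, adjusted p = 0.033). In that comparison 4.21% of all genes fell and 4.05% rose. At D28 against D14 only *zeb2* of the 8 passed, and it rose (2.10, adjusted p = 0.0056), where 0.675% of all genes rose and 0.352% fell. Of the 8, 6 had a positive log2 fold change there, where 52.2% of all genes tested did.

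Of the 8 delta protocadherins, 3 were called lower than at D7, *pcdh9* of them only at D28. Of all genes tested, 2.40% were called lower at D14 and 4.21% at D28, each against D7. *pcdh19*, linked in humans to an epilepsy of infancy, had 219, 490 and 504 CPM at D7, then 63.7, 40.6 and 71.3 at D14, and 75.3, 126 and 44.6 at D28. All D7 libraries lay above all later ones, and D14 and D28 overlapped. It was 6.96-fold lower at D14 (log2 fold change -2.80 ± 0.45 SE, adjusted p = 0.0082) and 5.01-fold lower at D28 (-2.33 ± 0.45, adjusted p = 0.013), each against D7. The D14 call was lost without D7 B, D7 C, D14 A or D14 B (adjusted p = 0.055, 0.055, 0.054 and 0.058) and the D28 call without D7 B or D7 C (0.060 and 0.065).

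*pcdh18* followed the same course. It had 499, 678 and 864 CPM at D7, then 174, 124 and 245 at D14, and 143, 259 and 119 at D28, with no overlap between D7 and the later libraries. It was 3.79-fold lower at D14 (-1.92 ± 0.39, adjusted p = 0.020) and 3.97-fold lower at D28 (-1.99 ± 0.39, adjusted p = 0.014), each against D7. The D14 call was lost without D7 B, D7 C, D14 A or D14 B (adjusted p = 0.087, 0.10, 0.10 and 0.11) and the D28 call without D7 B, D7 C or D28 C (0.058, 0.073 and 0.052).

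*pcdh9* fell for D28 against D7 and did not pass in the other comparisons. It had 81.5, 122 and 167 CPM at D7, then 47.2, 50.2 and 92.5 at D14, and 36.1, 42.2 and 41.4 at D28. D28 lay below all D7 and all D14 libraries, and D7 and D14 overlapped. The log2 fold change was -1.64 ± 0.36 for D28 against D7 (adjusted p = 0.020), and the call was lost without D7 B (0.072), D7 C (0.096) or D28 C (0.056). It was -0.67 ± 0.36 for D28 against D14 (adjusted p = 0.55).

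*pcdh1*, a protocadherin found in human airway epithelium, had the opposite sign at D14. It had 46.7, 50.8 and 66.5 CPM at D7, then 161, 146 and 151 at D14, and 52.2, 266 and 137 at D28. The D14 libraries lay close together and above D7, and D28 A lay among the D7 libraries. The log2 fold change was 1.47 ± 0.46 for D14 against D7 (adjusted p = 0.091) and 1.46 ± 0.46 for D28 against D7 (adjusted p = 0.072), so that neither passed. Without D28 A, which also enters the shared estimate of the spread, the values were 1.47 (adjusted p = 0.0033) and 1.87 (adjusted p = 0.0013). Without D28 B they were 1.47 (adjusted p = 0.045) and 0.80 (adjusted p = 0.21).

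Of the other delta protocadherins none passed in the time course. *pcdh7* averaged 973 ± 324, 419 ± 203 and 531 ± 325 CPM in D7, D14 and D28 libraries, with a log2 fold change of -1.22 ± 0.48 for D14 against D7 (adjusted p = 0.17). *pcdh11x* had 183 to 219 at D7, then 89.8 to 141 at D14, and 68.1 to 220 at D28, and its log2 fold change for D14 against D7 was -0.80 ± 0.40 (adjusted p = 0.27). *pcdh8*, which takes part in mesoderm movements of vertebrate embryos, had 16.0 to 54.7 at D7, then 4.83 to 14.4 at D14. At D28 it had 122 in library A and 12.3 and 7.16 in B and C. *pcdh10* averaged 258 ± 129, 233 ± 53.0 and 254 ± 106, and its groups overlapped. In all, 7 of the 8 delta protocadherins had a negative log2 fold change for D14 against D7, where 52.3% of all genes tested were positive. Of the 8, 2 passed, both lower, where 2.40% of all genes were called lower. The median of the 8 was -1.10, against 0.05 over all genes tested.

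The other cadherins gave no call. *cdh15*, the cadherin of muscle satellite cells in mammals, had 92.1, 88.2 and 183 CPM at D7, then 57.4, 27.5 and 68.7 at D14, and 55.1, 73.6 and 32.4 at D28. The later libraries were all below D7, and the log2 fold change was -1.25 ± 0.43 at D14 (adjusted p = 0.12) and -1.20 ± 0.43 at D28 (adjusted p = 0.11), each against D7. Over the same interval the 9 muscle markers counted summed to 61.6 to 73.9, 71.8 to 89.9 and 92.2 to 218 in D7, D14 and D28 libraries, and *pax7*, the defining factor of satellite cells, rose at D28 against D7 (1.53, adjusted p = 0.018). *cdh13*, a cadherin held to the membrane by a lipid anchor, averaged 23.2 ± 3.57, 34.5 ± 4.39 and 42.2 ± 17.6 in D7, D14 and D28 libraries. It did not pass for D28 against D7 (0.86 ± 0.38, adjusted p = 0.17). *cdh24* averaged 21.7 ± 3.69, 18.9 ± 3.103 and 17.7 ± 7.79 and its groups overlapped.

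*cdh23* and *pcdh15* form the tip links of hair cells in the inner ear. *cdh23* had 11.2, 3.45 and 2.42 CPM at D7, then 14.0, 13.4 and 10.8 at D14, and 15.7, 17.2 and 14.1 at D28, with a log2 fold change of 1.45 ± 0.55 for D28 against D7 (adjusted p = 0.12). *pcdh15* had 2.56 to 5.18 at D7 and D14, and 11.6, 0.111 and 1.61 at D28. The range of *pcdh15* at D28 spanned that of the earlier libraries. Both genes overlap other annotated genes, as do *cdh4*, *cdh12*, *cdh17*, *cldn20*, *pcdh7* and *pcdh9*. The strand setting of the counting is not given in the sources used here, so that reads of such neighbours may be counted with these 8 genes. Overlap was looked for only in the 27 members placed on a numbered chromosome or X. The members not placed, *cdh11* and *pcdh19* among them, were not checked.

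A run of 5 cadherins lies on chromosome 4 between 104444730 and 114218574, in the order *cdh18*, *cdh12*, *cdh10*, *cdh9* and *cdh20*, all of them known mainly from the nervous system of mammals. None exceeded 68 counts in any library. The counts in this paragraph are raw and not scaled to library size, and the D14 libraries had the highest totals of the time course. *cdh18* had 14, 6 and 0 counts at D7, then 66, 68 and 46 at D14, and 54, 41 and 6 at D28. *cdh9* had 6, 11 and 0 counts at D7, then 34, 44 and 33 at D14, and 23, 11 and 42 at D28. *cdh20* had 1, 0 and 6 counts at D7, then 21, 29 and 14 at D14, and 0, 17 and 32 at D28. *cdh18*, *cdh9* and *cdh20* did not pass for D14 against D7 (adjusted p = 0.24, 0.34 and 0.43). *cdh10* and *cdh12* had a negative log2 fold change in the same comparison. *cdh22* had 4, 21 and 3 counts at D7, then 77, 91 and 155 at D14, and 77, 15 and 17 at D28 (log2 fold change for D14 against D7 2.89 ± 0.99, adjusted p = 0.11). *cdh8* had 0 to 22 counts at D7 and D14 and 22 to 49 at D28.

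Other members also lie near each other. *pcdh10* and *pcdh18* are neighbours among the 36 on chromosome 5, with 2.76 Mb between them, and *pcdh18* fell after D7 while *pcdh10* had a log2 fold change of -0.16 ± 0.44 (adjusted p = 0.88, D14 against D7). *pcdh12* and *pcdh1* are 0.221 Mb apart on chromosome 4. *pcdh12*, known from mammalian endothelium, averaged 8.73 ± 3.06, 10.5 ± 3.65 and 14.1 ± 8.52 in D7, D14 and D28 libraries and did not pass. Chromosome 4 held 11 of the 27 members placed on a chromosome and chromosome 3 held 7.

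The claudins of endothelium and glia showed no call. *cldn5*, the claudin of the blood-brain barrier, had 34.8, 45.1 and 41.6 CPM at D7, then 26.2, 19.8 and 36.6 at D14, and 34.1, 9.45 and 19.2 at D28. Its log2 fold change for D28 against D7 was -0.97 ± 0.44 (adjusted p = 0.18). The 10 endothelial markers summed to 20.3 to 40.8, 74.6 to 108 and 44.6 to 89.3 in D7, D14 and D28 libraries, lowest at D7, where *cldn5* had its highest mean. *cldn19*, found in Schwann cells in mammals, averaged 9.56 ± 5.73, 4.84 ± 2.18 and 8.58 ± 6.78, while the 9 Schwann cell markers summed to 122 to 187, 351 to 404 and 471 to 942 in D7, D14 and D28 libraries. Single genes set much of these sums. *erbb3* made the largest part of the step to D14 (mean 48.4 at D7 and 245 at D14), and *mpz* held 369 of the 942 in D28 C. For D14 against D7, 6 of the 9 had a positive log2 fold change, where 52.3% of all genes tested did. *cldn11*, of myelin in the mammalian brain, stayed between 9 and 48 counts per library in the time course. *cldn2*, *cldn12*, *cldn25* and *pcdh20* gave adjusted p of 0.21 or more in each comparison of times.

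At D21, no member passed for ZA against PBS with libraries unpaired. Among 18988 genes tested, 0.00527% were called higher and 0.0369% lower, and 33 of the 36 genes were tested. An unadjusted p under 0.05 was reached by 897 of all genes and by 3 members (*pcdh10*, *cldn1* and *pcdh18*). DESeq2 and limma with quantile normalization also called none of the 33. The median log2 fold change of the 33 was 0.12, against -0.00 over all genes.

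*pcdh10*, a delta protocadherin known from axon growth in the mouse brain, had 867, 755 and 363 CPM in ZA A, B and C, against 266, 262 and 48.6 in PBS A, B and C. The groups did not overlap, and in each letter the ZA library was higher, by 3.25, 2.88 and 7.46 times. Unpaired, the log2 fold change was 1.78 ± 0.62 (adjusted p = 0.94). ZA and PBS libraries of the same letter deviated together over all genes, a pairing read from these same counts and not from the labels. The study reports batch effects among its D21 replicates, without naming the libraries. With the letter as a replicate block *pcdh10* passed, at 2.02 ± 0.29 (adjusted p = 0.036). It was then the only member called, where 0.0527% of the genes tested were called higher. With the treatment entries read as written (PBS A left out and ZA A among the PBS libraries) the unpaired value was 0.40 (adjusted p = 0.9996), and without both A libraries it was 1.85 (adjusted p = 0.55).

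*cldn1* had 347, 420 and 359 CPM in ZA libraries, against 248, 152 and 179 in PBS libraries, with no overlap. Its log2 fold change was 0.94 ± 0.35 (adjusted p = 0.9985) and 0.97 ± 0.24 with the block (adjusted p = 0.18). The epidermis markers summed to 6864 to 9661 in ZA libraries, against 2529 to 6968 in PBS libraries, and their part in the *cldn1* values was not tested. *cldn7* had 8.26, 4.86 and 7.06 CPM in ZA libraries, against 9.91, 2.04 and 0 in PBS libraries. *cdh17* was lower in every ZA library (5.16, 3.45 and 4.97 CPM, against 7.64, 8.51 and 7.93). *cldn20* was lower in the ZA library of each letter, at 0.26, 0.618 and 0.942 of the PBS level. Neither passed (adjusted p = 0.9985 each). Of the 4 epithelial members tested, 2 had a positive and 2 a negative log2 fold change, with a median of -0.06.

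*pcdh18* was lower in every ZA library, at 47.0, 127 and 150 CPM, against 152, 280 and 218 in PBS libraries. Its log2 fold change was -1.04 ± 0.44 (adjusted p = 0.9985) and -1.14 ± 0.26 with the block (adjusted p = 0.15). *pcdh19*, which like *pcdh18* was highest at D7, the first time sampled, had 31.0, 43.4 and 49.6 in ZA libraries. PBS libraries had 56.3, 47.6 and 40.0, and these overlapped. *cdh4* had 6.97, 7.96 and 9.15 in ZA libraries, against 16.9, 12.95 and 16.5 in PBS libraries, without overlap, and a log2 fold change of -0.96 ± 0.46 (adjusted p = 0.9985).

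*cdh2* and *cdh11* differed between letters at D21. *cdh2* had 5.42, 18.3 and 38.7 CPM in ZA libraries, against 16.5, 42.4 and 25.6 in PBS libraries (log2 fold change -0.47 ± 0.62, adjusted p = 0.9985). *cdh11* had 22.2, 64.3 and 123, against 41.8, 150 and 206 (-0.96 ± 0.63, adjusted p = 0.9985). It was lower in the ZA library of each letter, at 0.531, 0.428 and 0.596 of the PBS level, and with the block its log2 fold change was -0.98 ± 0.24 (adjusted p = 0.18). *pcdh9* was also lower in each letter (-0.88 ± 0.30 with the block, adjusted p = 0.36) and *pcdh7* higher (0.75 ± 0.22, adjusted p = 0.28). In both groups library A was the lowest for *cdh2* and for *cdh11*. *cldn19* had 2.32, 4.07 and 5.67 CPM in ZA libraries, against 1.65, 0 and 0 CPM in PBS libraries, without overlap (adjusted p = 0.9985). The raw counts of *cldn15* were 10, 0 and 17 in ZA libraries, against 0, 0 and 0 in PBS libraries, at least 8.81-fold higher when PBS is set to 3 counts over the group, but did not reach the count needed for the test.

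**Figure D4:**
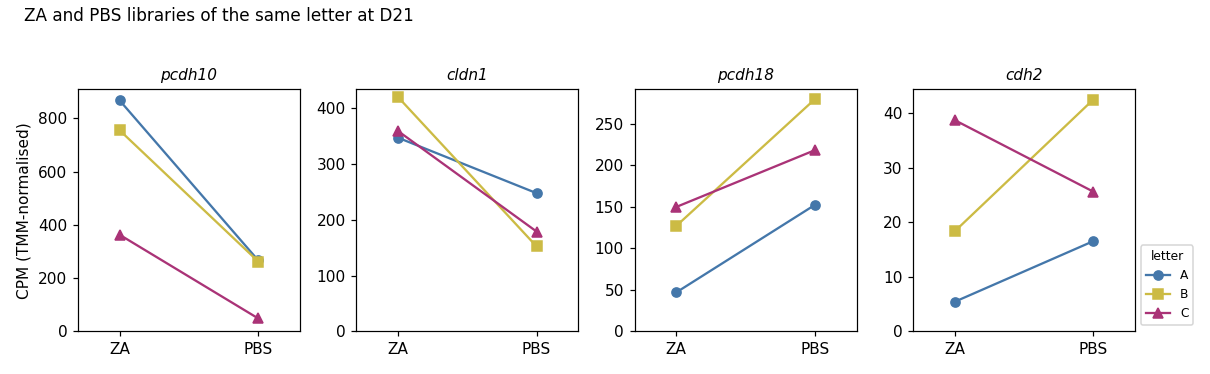
CPM (vertical axes, from 0) of *pcdh10*, *cldn1*, *pcdh18* and *cdh2* in ZA (left) and PBS (right) libraries at D21, with a line joining libraries of the same letter. *pcdh10* and *cldn1* are higher and *pcdh18* is lower in the ZA library of each letter, while the lines of *cdh2* cross.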

How the data were processed

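RNA of *col3a1*+ cells sorted from tails was sequenced as stranded total RNA libraries depleted of ribosomal RNA. After alignment by STAR to the rAnoCar3.1.pri assembly, the authors deposited 1 whole-number count per gene and library. The deposited counts are named as normalized, but library totals differ and no scaling was seen, so they were used as counts. The counting tool and its strand setting are not given in the sources used here. The submitters' processing notes name DESeq2 1.45.1 and SAMtools 1.17.

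Genes reaching 10 counts in 3 or more of the fitted libraries were tested with edgeR 4.0.16 (TMM, quasi-likelihood test, Benjamini-Hochberg over all genes tested, call at adjusted p under 0.05). D7, D14 and D28 shared 1 fit of 9 libraries with pairwise contrasts, and ZA and PBS had a fit of 6. The SE is the size of the log2 fold change over the root of the F statistic. DESeq2 1.42.0 and limma 3.58.1 (R 4.3.3) were alternatives, with the low-count filter, the fold threshold, the libraries in the fit, each library left out and the letter as a block. Plots used Python 3.11.15 and matplotlib 3.10.9. The fits were also run on simulated counts, with changes planted in genes averaging 50 or more counts and no outlying library. Such a run does not cover genes of low count or a library that stands apart as D28 A does.

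After group means were removed, ZA and PBS libraries of the same letter correlated at 0.396, 0.332 and 0.304 across 13200 genes, so that the letters were taken to pair them. This pairing comes from the data, not from the labels, and with 3 libraries per group only few matchings of libraries are possible.

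Members and lists were chosen with earlier results of these data known. By the rule for named genes every member may be named, with library values for members that passed a test and for *cdh2* and *cdh11*. Library values of other members were added after they were seen. Partners and markers are named where they passed, at most 3 per list and comparison. A rule for the highest levels per transcript length was not applied, since transcript lengths were not used here. The other cadherins and claudins of epithelia that the lists name did not reach the count or were not among the 43 matching symbols. Values of *cdh1* and *cdh3* had been planned, and neither symbol was among the 43. Positions and overlaps come from RefSeq by symbol (36 of 36 members matched), with overlaps looked for only in the 27 members placed on a chromosome. Total counts set the precision, and intervals and floors (3 counts for a group at 0) cover counting error only. No sequences are shown.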

Additional observations from a re-analysis of the deposited data

How the results depend on the processing

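No alternative turned the direction of the log2 fold changes of the members called, of *pcdh1*, or of *cldn1*, *pcdh10* and *pcdh18* at D21. At D14 against D7, 3 members passed. DESeq2 gave 6 (12.4% of all genes tested were called) and limma with quantile normalization 5 (5.85%). D14 against the mean of the other timepoints gave 1 (*cdh2*, with 1.18% of all genes called). Leaving out 1 library gave 0 (without D14 A, D7 B or D7 C) to 8 (without D28 A). At D28 against D14, 1 passed and DESeq2 gave 2, adding *cdh17* (3.73% of all genes called), while every fit with 1 library left out gave 1. At D28 against D7, 6 passed. The threshold of a log2 fold change over 2 gave 3 (4.27% of all genes called) and the mean of the other timepoints 1 (2.68%). Leaving out 1 library gave 1 (without D7 B or D7 C) to 10 (without D28 A). For ZA against PBS, 0 passed and the replicate block gave 1 (*pcdh10*), while leaving out 1 library gave 0 to 0. In the time course the letters did not pair the libraries, since correlations of the same letter ran from -0.194 to 0.199. There the replicate block left 3, 1 and 6 members called, and over all genes it gave 578, 109 and 809 calls in place of 986, 219 and 1761. Over all genes DESeq2 called 2613, 771 and 3739, and 69 for ZA against PBS in place of 8. Quantile normalization moved the median of all genes at D28 against D7 by -0.17, which is small beside the changes of the members called. With 13 of the 36 genes under 100 counts in every library, depth limits what could be seen for them.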
